A study of Mus musculus with 4 samples.

Results

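Th1 lineage and cytotoxic effector genes are described here in T helper 17 (Th17) cells cultured with or without serum amyloid A1 (SAA1). The group holds 10 genes, chosen by symbol from the 23356 gene rows of the authors' deposited table. Tbx21, Eomes, Runx3 and Hopx encode regulators of gene expression, Ifng encodes interferon gamma, and Gzmb, Prf1, Fasl, Nkg7 and Srgn encode parts of the killing machinery. All 10 symbols were found, each in a single row. The rule that chose them uses their known functions and no measured value, but it was written with earlier results of these data known.

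The cells were T cells of C57BL/6 mice aged 6 to 8 weeks, grown for 48 h as Th17 cultures in vitro. In the SAA1 group recombinant murine SAA1, an acute-phase protein, was added at a dose labelled as 2 ng/ml. The control group, called vehicle here from the abbreviation in its titles, received no SAA1. Each group had 2 RNA-seq libraries, which the authors merged into 1 value per group, and nothing in the labels says whether the libraries came from separate cultures or mice.

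Th1 cells are the CD4 T cells that make interferon gamma, a programme set up by T-bet together with Runx3. Cytotoxic lymphocytes kill by releasing granules in which granzymes and perforin are stored on the proteoglycan serglycin, or by showing Fas ligand to a target cell. T-bet also opposes the Th17 programme, and Th17 cells can turn on Th1 genes when they meet IL-12 or IL-23, so the 2 programmes are often read side by side.

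Values are in FPKM, a read-pair count corrected for transcript length and for library size, with 1 value per group, so no spread between libraries can be shown and the depth is unknown. The ratio is given as log2 of SAA1 over vehicle with a standard error (SE) obtained as that ratio divided by the authors' test statistic, and a 95% interval from that SE. A gene is called when its adjusted p in the authors' deposited table, from Cuffdiff, is under 0.05. In all, 11481 genes were tested and 749 were called, which is 6.52%. The Th17 cytokine gene Il17a rose with SAA1, from 56.0 to 568 FPKM (adjusted p 0.0019 by Cuffdiff). Cd4 was at 162 and 131 FPKM (adjusted p 0.23 by Cuffdiff). Of 13 tested T cell and Th17 identity markers, 5 were called higher and 1 lower, beside 3.97% higher and 2.55% lower over all tested genes.

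None of the 10 Th1 and cytotoxic genes was called. Of the 8 that were tested by Cuffdiff, 0 were called higher and 0 lower in the authors' deposited table, beside the 6.52% called over all tested genes (3.97% higher and 2.55% lower). At an adjusted p under 0.01, which 3.8% of all tested genes passed, the count was also 0. An unadjusted p under 0.05 was found for 3 of the 8, against 15.8% of all tested genes. They were Hopx and Prf1 on the higher side (8.22% of all tested genes) and Fasl on the lower side (7.62%). The ratio was above 0 for 4 tested genes and below 0 for the other 4, and the median log2 ratio of the 8 was -0.01, beside -0.02 over the 10701 expressed genes, meaning those that reached 1 FPKM in at least 1 of the groups. Eomes and Ifng were not tested by the authors.

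The sequences just upstream of 4 of these genes are shown, with transcripts from nearly undetected (Ifng) to well expressed (Nkg7) in the same cells. Each is the 250 bases before a RefSeq transcription start on GRCm38.p6, printed 5′ to 3′ on the gene's strand. Capitals mark matches on either strand to TCACACC (a T-box half-site), TGTGGT (the Runx core) or TTCNNNGAA (a STAT site), and no match overlapped another. The windows are chr10:118440796-118441045 for Ifng, chr7:43436888-43437137 for Nkg7, chr14:56262335-56262584 (minus strand) for Gzmb and chr4:135120395-135120644 for the upstream of 2 starts of Runx3.
Ifng: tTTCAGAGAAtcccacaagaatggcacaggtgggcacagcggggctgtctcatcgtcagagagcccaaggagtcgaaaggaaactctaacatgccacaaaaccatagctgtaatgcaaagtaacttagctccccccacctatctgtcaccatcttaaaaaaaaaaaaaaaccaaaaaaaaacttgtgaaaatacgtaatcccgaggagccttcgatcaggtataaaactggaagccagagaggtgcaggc
Nkg7: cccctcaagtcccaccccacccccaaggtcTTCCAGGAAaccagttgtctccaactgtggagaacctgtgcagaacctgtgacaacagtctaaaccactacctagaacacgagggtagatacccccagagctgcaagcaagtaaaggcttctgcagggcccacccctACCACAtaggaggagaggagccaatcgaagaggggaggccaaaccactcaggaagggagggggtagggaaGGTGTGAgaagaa
Gzmb: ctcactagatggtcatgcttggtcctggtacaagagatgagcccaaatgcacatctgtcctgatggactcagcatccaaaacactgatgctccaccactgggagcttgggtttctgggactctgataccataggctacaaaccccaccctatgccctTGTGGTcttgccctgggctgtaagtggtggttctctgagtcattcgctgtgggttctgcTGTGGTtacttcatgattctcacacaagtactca
Runx3: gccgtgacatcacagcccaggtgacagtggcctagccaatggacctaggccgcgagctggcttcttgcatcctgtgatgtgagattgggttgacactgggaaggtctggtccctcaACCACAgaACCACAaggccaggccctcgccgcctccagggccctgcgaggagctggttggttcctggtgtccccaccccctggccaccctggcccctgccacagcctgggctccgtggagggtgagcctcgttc
The Ifng window held 1 STAT match and no T-box or Runx match. The Nkg7 window held 1 match to each of the 3 motifs, and the Gzmb and Runx3 windows held 2 Runx matches each. Every printed window thus held a match, as did windows of Prf1 and Srgn that are not printed. The windows of Tbx21, Eomes, Fasl and Hopx, the other Runx3 start and the upstream Srgn start held none.

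All 10 genes had at least 1 upstream window, 13 in all. The Runx letters were in 5 of the 13, beside 14.0% of 32851 such windows over the genome. Those 5 were the windows of Gzmb, Nkg7, Prf1, the downstream start of Srgn and the upstream start of Runx3. The T-box letters were in 1 of the 13 (Nkg7), beside 3.33%, and the STAT letters in 2 (Ifng and Nkg7), beside 7.02%. A match describes the letters only, and windows without a match, such as those of Tbx21, Eomes and Fasl, say nothing about binding elsewhere.

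**Figure D1:**
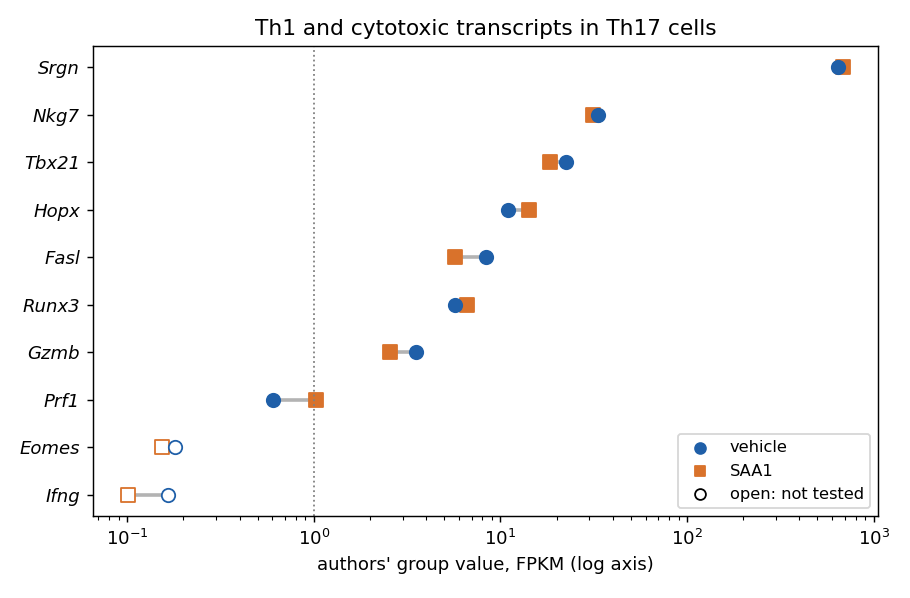
FPKM of each gene in the vehicle group (blue circles) and the SAA1 group (orange squares) on a log axis, 1 authors' value per group, with a dotted line at 1 FPKM. Open symbols mark Eomes and Ifng, which were not tested, and Srgn lies far to the right of the other genes in both groups.

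By level the genes ran from Srgn through Nkg7, Tbx21 and Hopx, then Fasl and Runx3, to Gzmb, Prf1, Eomes and Ifng. That was the order with vehicle, and with SAA1 it differed only in that Runx3 stood above Fasl. Because the table has no value per library, it cannot be said which neighbours in this order differ beyond their spread. The plot of FPKM by gene and group shows the spacing on a log axis.

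Transcripts of Tbx21, which encodes the Th1 lineage factor T-bet, were detected in the cultures of both groups. Tbx21 was at 22.3 FPKM with vehicle and 18.5 FPKM with SAA1, near the middle of the expressed genes (percentile 57.2). The log2 ratio was -0.27 ± 0.21 (SE), with a 95% interval from -0.69 to 0.15 and an adjusted p of 0.37 by Cuffdiff in the authors' deposited table. The interval thus reaches from a ratio of 0.622 to one of 1.11, so a halving lies outside it. Among 1148 tested genes within 1.2-fold of its level, 4.88% were called, and the smallest absolute log2 ratio called there was 0.43. The gene spans chr11:97098007-97115331 on the minus strand, with 6 exons.

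Eomesodermin, the T-box factor related to T-bet that acts in CD8 T cells and natural killer cells, was barely detected. Eomes was listed at 0.180 FPKM with vehicle and 0.154 FPKM with SAA1, so the Tbx21 value was 124 times that of Eomes with vehicle and 120 times with SAA1. Both Eomes values were far under 1 FPKM and the authors did not test the gene. It spans chr9:118478189-118486132 on the plus strand and shares its place with an antisense gene in GENCODE M21.

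Runx3, the Runt factor that works with T-bet at Ifng and that silences Cd4 in the CD8 lineage, was expressed at a lower level than Tbx21. It was at 5.68 FPKM with vehicle and 6.59 FPKM with SAA1, a log2 ratio of 0.21 ± 0.23 (SE). The interval of -0.24 to 0.66 holds both a small decrease and an increase of up to 1.59-fold, and the adjusted p by Cuffdiff was 0.61 in the authors' deposited table. Tbx21 was 3.93 times Runx3 in FPKM with vehicle and 2.81 times with SAA1. Runx3 spans chr4:135120645-135177990 on the plus strand. Transcripts from its RefSeq starts cannot be told apart in the single value per group.

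Hopx, a small homeodomain protein that does not bind DNA and that is known as a marker of effector and memory Th1 cells, was at 11.0 FPKM with vehicle and 14.3 FPKM with SAA1. Its log2 ratio was 0.38 ± 0.26 (SE), interval -0.14 to 0.90. The unadjusted p was 0.041 and the adjusted p 0.28 by Cuffdiff in the authors' deposited table, so the gene was not called. It spans chr5:77086986-77115123 on the minus strand and overlaps the antisense gene Hopxos. Runx3 also overlaps an antisense gene in GENCODE M21, and as no source used here gives the strand setting of the counting, reads of either partner cannot be told apart.

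Ifng, the cytokine of the Th1 lineage, was listed at 0.165 FPKM with vehicle and 0.101 FPKM with SAA1, the lowest of the 10 genes in both groups. The Tbx21 value was therefore 135 times the Ifng value with vehicle and 183 times with SAA1. Il17a, the cytokine of the Th17 lineage, was at 339 times the Ifng level with vehicle and 5606 times with SAA1, a shift that comes mainly from the Il17a values given above. The log2 ratio of the Ifng values was -0.70, but the authors did not test it and no error is available, so no difference between the groups is stated. The gene spans chr10:118441047-118445892 on the plus strand.

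**Figure D2:**
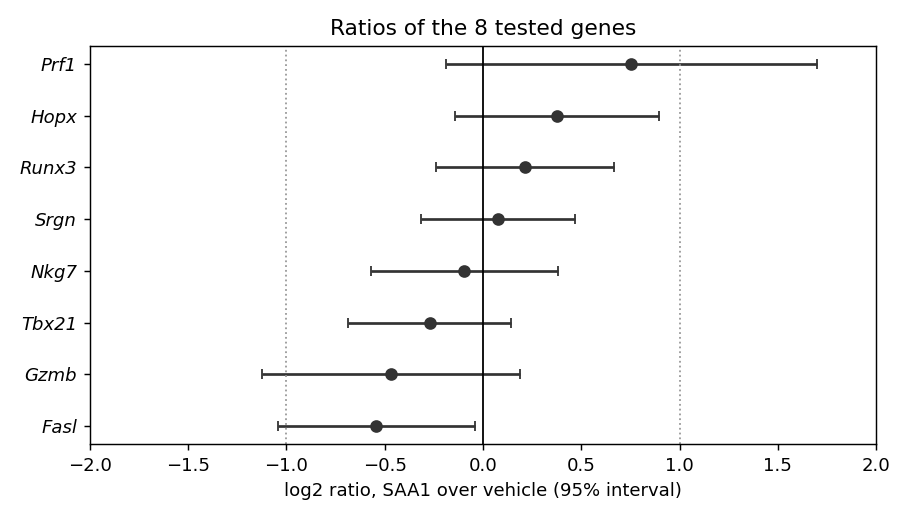
Log2 ratio of SAA1 over vehicle for the 8 tested genes (points) with the 95% interval from the SE implied by the authors' test statistic (bars). Dotted lines mark 2-fold, and of the 8 intervals only that of Fasl leaves out 0.

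Fasl, the death ligand that triggers apoptosis through Fas, came closest to the threshold. It was at 8.32 FPKM with vehicle and 5.72 FPKM with SAA1, a ratio of 0.687 and a log2 ratio of -0.54 ± 0.26 (SE). The adjusted p by Cuffdiff was 0.056 in the authors' deposited table, where the unadjusted p was 0.0039. With the threshold moved to 0.1, where 8.81% of all tested genes were called, Fasl was the only 1 of the 8 called, as lower. The 95% interval, from -1.04 to -0.04, left out 0. With a p taken from the normal distribution for the deposited statistic, as the interval is, Fasl had p 0.034. Adjusted over all tested genes, that normal p became 0.51. Among 813 tested genes of a level within 1.2-fold, called genes had absolute log2 ratios from 0.45 upwards. In whole cultures, fewer cells with a transcript and less transcript per cell cannot be told apart. The gene spans chr1:161780692-161788495 on the minus strand.

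Gzmb, the serine protease granzyme B, was weakly expressed, at 3.53 FPKM with vehicle and 2.55 FPKM with SAA1. Its log2 ratio was -0.47 ± 0.34 (SE), with an interval from -1.13 to 0.19 and an adjusted p of 0.32 by Cuffdiff in the authors' deposited table. Prf1, which encodes the pore-forming protein perforin, was weaker still, at 0.604 FPKM with vehicle and 1.02 FPKM with SAA1, a log2 ratio of 0.76 ± 0.48 (SE). Its interval of -0.19 to 1.70 was the widest of the 8, and the unadjusted p of 0.031 became an adjusted p of 0.23 by Cuffdiff in the authors' deposited table. These 2 granule proteins, which act together on a target cell, had ratios on opposite sides of 0, and neither was called. The Gzmb level was 5.84 times that of Prf1 with vehicle and 2.50 times with SAA1. Gzmb spans chr14:56258858-56262260 on the minus strand and Prf1 chr10:61297836-61304263 on the plus strand. Granzyme genes resemble each other in sequence, so reads could have been split between them.

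Nkg7 and Srgn, both granule genes, had the highest levels of the 10 genes and, of the 8 tested, the ratios nearest to 0. Nkg7, a membrane protein of cytotoxic granules needed for their release, was at 33.5 FPKM with vehicle and 31.4 FPKM with SAA1 (log2 ratio -0.09 ± 0.24 SE, interval -0.57 to 0.38). Srgn, the core protein of serglycin, was at 647 FPKM with vehicle and 683 FPKM with SAA1 (log2 ratio 0.08 ± 0.20 SE, interval -0.32 to 0.47). Their adjusted p by Cuffdiff was 0.91 for each in the authors' deposited table, and both intervals lay within 2-fold in either direction. Srgn stood at percentile 98.9 of the expressed genes and was 183 times Gzmb with vehicle and 267 times with SAA1. Among the 37 tested genes within 1.2-fold of its level, 0 were called. Serglycin is made by many blood cells and is not particular to killer cells. Nkg7 spans chr7:43437138-43438246 on the plus strand and Srgn chr10:62494428-62507755 on the minus strand.

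**Figure D3:**
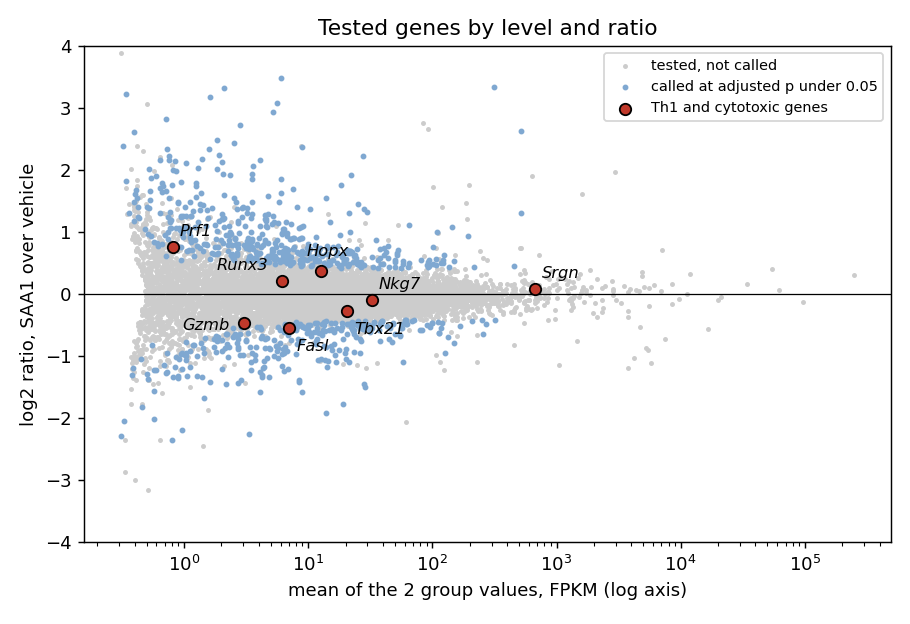
Log2 ratio of SAA1 over vehicle against the mean of both group values in FPKM (log axis) for tested genes, grey where not called and light blue where called; 89 tested genes with a ratio beyond 4 on the log2 scale or with no finite ratio are not drawn. None of the 8 tested Th1 and cytotoxic genes (red) was called. Fasl and Prf1 lie beyond the smallest absolute log2 ratio called at their level (0.45 and 0.55).

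Precision differed among the 8 tested genes. The SE of the log2 ratio was 0.20 for Srgn and 0.48 for Prf1, the lowest and highest of the 8, and the median over all tested genes was 0.22. For 5 of the 8 (Tbx21, Runx3, Hopx, Nkg7 and Srgn) the 95% interval lay wholly within 2-fold in either direction. For Fasl, Gzmb and Prf1 it reached past 2-fold, downwards for Fasl and Gzmb and upwards for Prf1. For Hopx and Prf1 the interval held 0 although the unadjusted p was under 0.05, because the deposited p is smaller than a normal p of the deposited statistic. This held for each of the 8, as for Tbx21 with a deposited p of 0.068 by Cuffdiff and a normal p of 0.20. The intervals and the deposited p therefore do not express the same error.

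The next list holds genes that carry signals to T-bet. Of 15 tested genes of IL-12, IL-18 and interferon gamma signalling, 0 were called by Cuffdiff in the authors' deposited table, beside 6.52% of all tested genes. An unadjusted p under 0.05 was found for 2, beside 15.8%. Their median log2 ratio was -0.13. Il12rb2, the IL-12 receptor chain that Th1 cells keep, was at 3.46 and 2.48 FPKM (log2 ratio -0.48 ± 0.28 SE, adjusted p 0.15 in the authors' deposited table). Socs3, a feedback inhibitor of cytokine receptors, was at 13.3 and 17.9 FPKM (0.43 ± 0.22 SE, adjusted p 0.069).

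Other Th1 and T-bet associated genes went both ways. Of 17 tested, 2 were called higher and 2 lower in the authors' deposited table, beside 3.97% higher and 2.55% lower over all tested genes. Their median log2 ratio was -0.01 over 17 expressed genes. Cxcr3, the chemokine receptor of Th1 cells and a known T-bet target, fell from 21.8 to 11.02 FPKM (log2 ratio -0.98 ± 0.24 SE, adjusted p 0.0019 by Cuffdiff). Twist1, a transcriptional repressor, fell from 1.34 to 0.580 FPKM. Txk, a Tec-family kinase linked to Ifng transcription, rose from 8.02 to 15.2 FPKM (0.92 ± 0.23 SE), and Lta, the cytokine lymphotoxin alpha, from 97.3 to 151 FPKM (0.63 ± 0.20 SE), with adjusted p of 0.046 for Twist1 and 0.0019 for Txk and Lta. Thus Tbx21 was not called while genes on its list were called in both directions. A difference between the ratios of Tbx21 and Cxcr3 was not tested.

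Among the factors that oppose or partner T-bet and Runx3, 1 of 11 tested was called higher and 1 lower in the authors' deposited table. Over all tested genes 3.97% were called higher and 2.55% lower. The list median was 0.06. Gata3, the Th2 factor, fell from 1.36 to 0.687 FPKM (-0.98 ± 0.39 SE, adjusted p 0.020 by Cuffdiff). Runx1, the Runt factor related to Runx3, was at 13.2 and 16.6 FPKM (adjusted p 0.21 by Cuffdiff in the authors' deposited table), and Cbfb, the partner subunit that Runx proteins bind, at 112 and 103 FPKM (0.82). Neither Runx1 nor Cbfb passed the test.

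**Figure D4:**
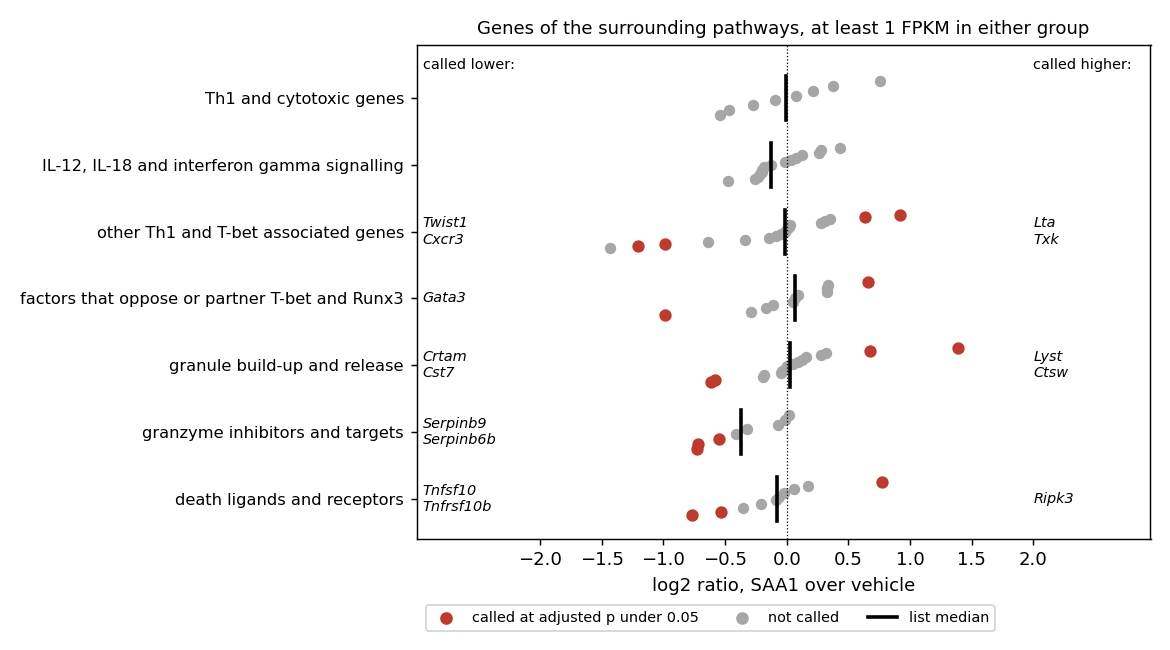
Log2 ratio of SAA1 over vehicle for each expressed gene, by list, with called genes in red, most of them named at the margins, and the list median as a black bar. The Th1 and cytotoxic genes hold no called gene, and the list of granzyme inhibitors and targets has its called genes on the lower side.

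The remaining granzymes were near the limit of detection. Of 9 genes, 0 reached 1 FPKM in either group, Gzmd, Gzme, Gzmg and Gzmk were listed at 0 in both, and the only one tested, Gzmm, was not called in the authors' deposited table, where it also had an unadjusted p above 0.05. Of 16 tested genes that build granules or release them, 2 were called higher, 2 lower and 12 not at all, with a median of 0.03. Over all tested genes 3.97% were called higher and 2.55% lower. Lyst, a regulator of lysosome size, rose from 6.25 to 9.98 FPKM (log2 ratio 0.68 ± 0.20 SE) and Ctsw, a cathepsin of cytotoxic lymphocytes, from 0.928 to 2.43 FPKM (1.39 ± 0.47 SE). Cst7, the cystatin that holds granule cathepsins in check, fell from 95.8 to 64.2 FPKM (-0.58 ± 0.21 SE) and Crtam, a surface receptor of cytotoxic lymphocytes, from 13.4 to 8.76 FPKM (-0.61 ± 0.23 SE). The adjusted p by Cuffdiff in the authors' deposited table lay between 0.0019 and 0.0071 for these 4.

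Inhibitors and targets of granzymes held calls on the lower side. Of 8 tested, 0 were called higher and 3 lower in the authors' deposited table, beside 3.97% higher and 2.55% lower over all tested genes. Their median was -0.37, beside -0.02 over the expressed genes. Serpinb9, the inhibitor that protects cells from their own granzyme B, fell from 14.7 to 8.93 FPKM (log2 ratio -0.72 ± 0.22 SE), and Serpinb6b, a related serpin, from 34.6 to 23.6 FPKM (-0.55 ± 0.21 SE). The adjusted p by Cuffdiff was 0.0019 for Serpinb9 and 0.012 for Serpinb6b. Gzmb itself was at 3.53 and 2.55 FPKM and was not called. Serpin genes of one family resemble each other, so their reads could also have been split.

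Of 10 tested death ligands and receptors, 1 was called higher and 2 lower in the authors' deposited table, with a median of -0.08. Over all tested genes 3.97% were called higher and 2.55% lower. Ripk3, the kinase of necroptosis, rose from 12.9 to 21.9 FPKM (log2 ratio 0.77 ± 0.22 SE). Tnfsf10, the death ligand TRAIL, fell from 1.30 to 0.762 FPKM (-0.77 ± 0.33 SE) and its receptor Tnfrsf10b from 11.7 to 8.09 FPKM (-0.53 ± 0.22 SE). Their adjusted p by Cuffdiff was 0.0019, 0.029 and 0.011. Fas, the receptor of Fasl, was at 33.8 and 26.4 FPKM (adjusted p 0.24 by Cuffdiff in the authors' deposited table). Fas and Fasl thus had ratios on the same side of 0, neither of them called. Over all 7 lists, 16 of 78 tested genes were called (20.5%), 6 higher and 10 lower, beside 6.52% of all tested genes, with 456 higher and 293 lower. The lists were written with earlier results of these data known, so this share is a description only. With a normal p of the deposited statistic, adjusted over all tested genes, 6 of the 16 were still called, Cxcr3, Txk, Lyst, Serpinb9 and Ripk3 among them, and the other 10 were not.

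Markers of cells that normally carry this machinery were low. Of 14 markers of CD8 T cells and natural killer cells, 1 reached 1 FPKM in either group, Cd8b1 at 4.32 FPKM with vehicle and 4.24 FPKM with SAA1, while Cd8a was listed at 0.164 and 0.103 FPKM. Their summed level was 6.97 FPKM with vehicle and 6.11 FPKM with SAA1, and the natural killer cell markers Klrb1c and Klra8 and the effector marker Klrg1 were listed at 0 in both groups. Cd160, a receptor of those cells, fell from 0.861 to 0.292 FPKM (adjusted p 0.013 by Cuffdiff). It was the only 1 of 4 tested markers called in the authors' deposited table, beside 6.52% of all tested genes. The part of such cells in the Fasl, Gzmb and Nkg7 values was not tested. Of 11 myeloid and B cell markers in the table, 1 reached 1 FPKM, Cd68 at 1.58 and 1.05 FPKM. None of the 3 tested was called by Cuffdiff, beside 6.52% of all tested genes, and 0 had an unadjusted p under 0.05, beside 15.8%.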

How the data were processed

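Th17 cells were cultured for 48 h with vehicle or SAA1, with 2 libraries per group, grouped by title. TopHat2 and Cuffdiff, without versions, and the builds mm9 and mm10 are named in the submitters' processing notes. The authors' deposited table gives 1 FPKM value per group and a test statistic, p-value and q-value per tested gene, per the file headers. The test statistic, a score computed by the authors with Cuffdiff as deposited, was taken here as the log ratio divided by its standard error. That form is an assumption, because the file headers name the statistic but do not define it. No source used here gives the filters, strand setting or scaling of the deposited values. Values per library are not used here, so library depth and replicate spread are unknown. Of 21589 rows whose symbol is in GENCODE M21, 99.1% lay at the GRCm38 position of that gene; coordinates are therefore on mm10, counted from 1. Antisense or overlapping genes of the annotation touch Eomes, Runx3, Hopx and Ifng.

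Log2 ratios were computed from the FPKM values with no pseudocount, and the SE and 95% interval from the deposited statistic (Python 3.11.15). The deposited adjusted p was checked as the Benjamini-Hochberg adjustment, with a largest gap of 5.23e-07. The calculation was run on simulated data whose statistic was built as the ratio over its SE with normal errors. That run cannot show whether the deposited statistic has this form. The design foresaw limma for values per library; the authors' test was used instead. From each list up to 4 called genes were named by smallest adjusted p, or, with fewer than 2 called, those of largest ratio. Some genes that the rule covers are counted but not reported here by name. That rule does not cover Cd4, Runx1, Cbfb, Fas, Cd8a, Gzmm, the markers listed at 0 or those genes that appear in the closing section alone, all picked with their values known. The members and lists were chosen with earlier results of these data known. RefSeq promoters (GRCm38.p6) matched all 10 genes. Alternatives covered the threshold, a fold minimum, the adjustment, the p-value, the pseudocount, the centring and the expression minimum.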

Additional observations from a re-analysis of the deposited data

How the results depend on the processing

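No paired analysis was possible because the table holds 1 value per group; the omission of each replicate was not run for the same reason. The count of Th1 and cytotoxic genes called was 0 at adjusted p thresholds of 0.05 and 0.01, with a minimum of 1.5-fold, with the adjustment over expressed genes and with a normal p of the deposited statistic. It was 1 at a threshold of 0.1 (Fasl). That threshold, passed by 8.81% of all tested genes, also gave 1 call among IL-12, IL-18 and interferon gamma signalling genes, against 0. The normal p called 247 genes of the table in place of 749 and 6 of the pathway genes in place of 16, 4 higher and 2 lower. By list it called 2 of the other Th1 genes against 4, 1 opposing or partner factor against 2, 1 granule gene against 4, 1 granzyme inhibitor or target against 3 and 1 death ligand or receptor against 3. A threshold of 0.01 left 11 of the 16 pathway calls, and 436 genes of the table in place of 749 (3.8% of all tested genes). By list it left 1 opposing or partner factor against 2 and 1 death ligand or receptor against 3. The cause was not tested. The median log2 ratio of the Th1 and cytotoxic genes was -0.01 over those reaching 1 or 5 FPKM and -0.16 over those reaching 0.1 FPKM, which adds the untested Eomes and Ifng. No ratio of the 10 genes changed sign under a pseudocount of 0.1 or 1 FPKM or under centring on the median; that of Ifng went from -0.70 to -0.40 and -0.08 with the pseudocounts. No median could be taken over the remaining granzymes, none of which reached 1 FPKM. Depth is unknown, so how far it limits the weakest genes cannot be given.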

Other observations

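For 8 of the 10 genes a tested gene lay within 200 kb on the chromosome; Gzmb and Ifng had none. The nearest on each side gave 14 genes, of which 0 were called by Cuffdiff in the authors' deposited table, beside 6.52% of all tested genes, and 1 had an unadjusted p under 0.05 (Eif4ebp2, a regulator of translation that lies 128 kb after Prf1, at 10.7 and 7.85 FPKM). Tbkbp1, which lies 20.8 kb from Tbx21, was at 2.58 and 2.56 FPKM, and Vps26a, 7.62 kb from Srgn, at 18.4 and 20.4 FPKM. Their ratios ran from -0.45 to 2.21 on the log2 scale. The highest was that of Spink2, a protease inhibitor gene 89.98 kb from Hopx, at 0.228 and 1.05 FPKM with an SE of 1.17 (adjusted p 0.34 by Cuffdiff in the authors' deposited table).

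Near Ifng, Il22, the cytokine gene 231 kb before it on chromosome 10, fell from 1.59 to 0.348 FPKM (log2 ratio -2.19 ± 0.71 SE, adjusted p 0.027 by Cuffdiff in the authors' deposited table). The authors did not test Ifng, so the neighbouring cytokine genes cannot be compared.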
